A study of Hordeum vulgare with 32 samples.

Results

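The barley transcripts described here are the 10 high-confidence gene models whose best Arabidopsis match in the deposited table reads histidine kinase 5, out of 30174 transcripts in all. They were taken by that description and by the high-confidence class alone, and all 10 passed the filter on low values. Another 5 transcripts carry the same description but are low-confidence models; they are given beside the 10 and are not counted with them. The family itself was selected on its TPM in the line vrs4.k, where its members had been seen to lie below Bowman at both stages. Values of the copies in vrs4.k are therefore given as a description without a test, against Bowman, against other lines and between stages.

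RNA was sequenced from the main shoot apex of barley (Hordeum vulgare), the growing tip that forms the spike. Bowman, a 2-rowed cultivar, was compared with the lines int-a.1 (stock GSHO 2055), vrs4.k (GSHO 1986), vrs1 (GSHO 1907) and int-c.5 (GSHO 2003), each labelled as an introgression line in cv. Bowman. Each line is named for an allele or a locus of the row-type or intermedium class, which acts on the lateral spikelets. The column names give int-a.1 as vrs3(int-a.1). Apices were taken at 2 steps of spike and floret development on the Waddington scale, W3.5 and W5.5, with 4 Bowman libraries and 3 libraries of every other line at each stage. The later stage is W5.5 in the sample labels and W5.0 in the column names. All plants were untreated and grew in long days, 16 h at 22 °C with light followed by a night of 8 h at 18 °C. Sampling fell 6 to 8 h before the night began. An introgression line also carries donor chromosome around its locus, and its donor segments were not analysed here. Nothing in the labels says whether libraries of a group came from separate plants or pools, so p-values measure only the spread between these libraries.

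Histidine kinases of plants work in a phosphorelay: the kinase passes a phosphate to a phosphotransfer protein, which passes it to a response regulator. Arabidopsis HISTIDINE KINASE 5 (AHK5, also called CKI2) is a cytoplasmic hybrid kinase and is not one of the membrane cytokinin receptors. It is known from guard cells and roots, where it acts in responses to hydrogen peroxide, ethylene and abscisic acid. What the barley copies do in the shoot apex is not known from the sources used here.

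The 10 copies had the same best match in 5 other plants. All 10 matched rice LOC_Os06g44410.1, Brachypodium Bradi1g31200.1, sorghum Sb10g026020.1, Aegilops AEGTA02684 and Arabidopsis AT5G10720.1. The 5 low-confidence transcripts shared the rice, Brachypodium and sorghum matches, which gave 15 barley transcripts for 1 rice locus. The median rice locus had 1 barley transcript, and 13 of 13305 loci had more than 15. A map position was given for 1 of the 10 copies (10%), MLOC_3247.1 on chromosome 3 at PopSeq position 108.57, against 9435 of all 13505 high-confidence transcripts (69.9%). The table names no unit for this position and no genome build. If copies with the same match are alike in sequence, they can share reads, and the level of a single copy is then less certain. The 5 low-confidence transcripts could share them too, so the sum of the 10 would not be free of this. Whether the models are separate genes or pieces of fewer genes was not tested, and their sequences were not used here.

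In Bowman 2 copies made up most of the family. MLOC_35121.1 had 81, 101.2, 89 and 74.6 TPM in the 4 Bowman libraries at W3.5 and 94.9, 79.9, 104.4 and 110.5 TPM at W5.5. TPM, the unit of these values, is an abundance scaled for transcript length and library size; the header calls the columns raw counts, but the values are not. MLOC_46165.1 was close to it, with 74.4, 106.5, 87.7 and 73.5 TPM at W3.5 and 108.1, 96.5, 98.6 and 89.5 TPM at W5.5. MLOC_41692.1 was next, at 35.02 ± 8.68 TPM (SD, n = 4) and 39.5 ± 8.53 TPM (SD, n = 4), and MLOC_32926.2 followed at 14.9 ± 4.17 and 23.2 ± 7.16 TPM (SD, n = 4 each). Over the 8 Bowman libraries, MLOC_52969.1 lay between 7.6 and 14 TPM, MLOC_53975.1 between 8.5 and 14.3 TPM, and MLOC_41222.1 between 5.9 and 10.4 TPM. MLOC_3247.1 (4 to 6.1 TPM), MLOC_42368.1 (2.5 to 4.2 TPM) and MLOC_50854.1 (1.5 to 4.3 TPM) were the weakest. The first and second copies overlapped in Bowman and cannot be ordered, while each of the pair lay above every Bowman value of the third.

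The family total, the summed TPM of the 10 copies, put the lines at 3 levels. Bowman had 241.2, 287.4, 264.4 and 246.5 TPM at W3.5 and 304.7, 271.3, 331.8 and 294.4 TPM at W5.5. The line int-c.5 stood at the same level, with 245, 215.2 and 250.2 TPM at W3.5 and 273, 320.7 and 253.8 TPM at W5.5. At both stages the int-c.5 libraries overlapped those of Bowman. The line int-a.1 was lower and more scattered, with 95, 152.4 and 146.4 TPM at W3.5 and 72.8, 181.2 and 194.6 TPM at W5.5. All 6 int-a.1 libraries lay below all 8 Bowman libraries. The lowest totals were those of vrs1, with 63.7, 44.2 and 36.1 TPM at W3.5 and 48.7, 43.2 and 34 TPM at W5.5, and of vrs4.k, with 55.6, 50.9 and 61.8 TPM and then 39.5, 32.7 and 65 TPM. These 2 lines overlapped each other at both stages and lay below every int-a.1 library.

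**Figure D1:**
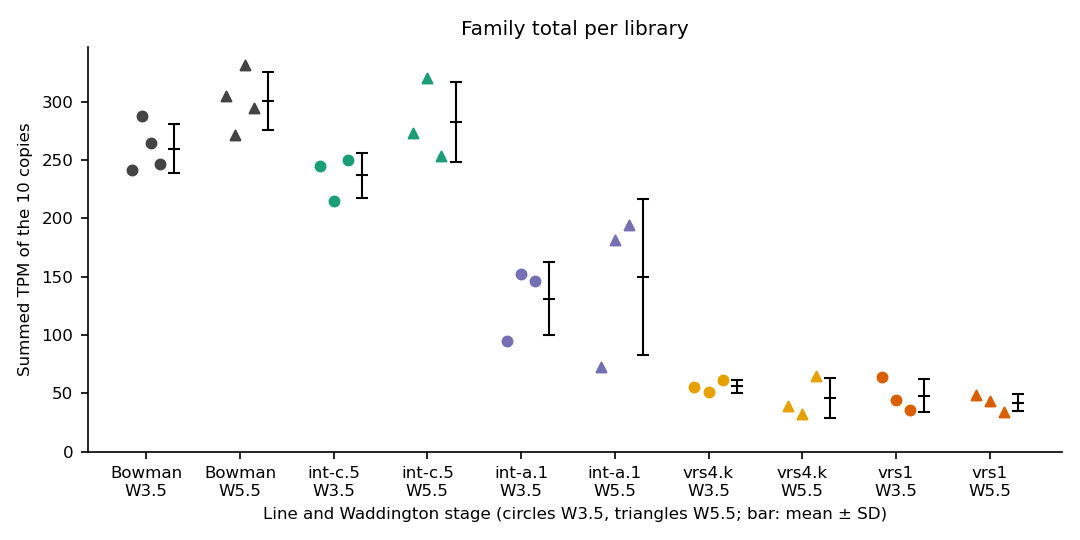
Summed TPM of the 10 copies (vertical axis) in each of the 32 libraries, by line and stage (horizontal axis); points are libraries, circles W3.5 and triangles W5.5, and the black bar is the mean ± SD of the group. Bowman and int-c.5 overlap, int-a.1 is lower with 1 library near 73 TPM at W5.5, and vrs4.k and vrs1 lie at or below 65 TPM.

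On the log2 scale the total differed from Bowman by -2.45 (replicate SD 0.272) in vrs1 at W3.5 and -2.82 (0.187) at W5.5. In vrs4.k the differences of the total were -2.19 (0.124) and -2.75 (0.33), and in int-a.1 they were -1.01 (0.253) and -1.12 (0.504). In int-c.5 they were -0.13 (0.115) and -0.09 (0.143). The 4 lines are all set against the same Bowman libraries at each stage, so these differences are not independent of each other. In bulk tissue, fewer cells that hold a transcript and less of it per cell cannot be told apart.

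The vrs1 comparison asks how the apex of a line with an altered row-type locus differs from that of Bowman. All 10 copies were lower in vrs1 in every library at both stages, and 9 of 10 were called lower at W3.5 and 10 of 10 at W5.5 (limma, Benjamini-Hochberg adjusted p below 0.05 over all 30174 transcripts). Calls of lower level made up 0.295% of all transcripts at the earlier stage and 0.268% at the later. The median log2 fold change of the copies was -1.94 at W3.5 and -2.43 at W5.5, against 0.00 and -0.03 over all transcripts. No vrs1 library reached any Bowman library in any of the 10 copies, a separation that 2.34% of all transcripts showed at W3.5 and 3.1% at W5.5. With only the libraries compared in the fit, 3 of 10 were called at W3.5 and 9 at W5.5.

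In TPM the abundant copies carried most of that difference. MLOC_35121.1 had 19.1, 12.1 and 11.6 TPM in vrs1 at W3.5 and 15.8, 17.1 and 11.9 TPM at W5.5, against no less than 74.6 TPM in Bowman. Its log2 fold change was -2.54 (SE 0.292, limma adjusted p = 1.09e-05) at W3.5 and -2.63 (adjusted p = 4.13e-06) at W5.5. MLOC_46165.1 had 22, 18.9 and 12.1 TPM and then 18.2, 13.3 and 6.8 TPM. It fell by 2.24 (adjusted p = 0.000146) and by 2.94 (adjusted p = 2.14e-06) on the log2 scale, and every value lay far under the 73.5 TPM of the lowest Bowman library. MLOC_41692.1 had 9.2, 4.1 and 4.8 TPM and then 3, 4.7 and 6.3 TPM, and fell by 2.39 (adjusted p = 4.26e-05) and 2.85 (adjusted p = 2.22e-06). The copy not called at W3.5 was MLOC_32926.2, with 4.8, 2.8 and 3.3 TPM against 16.2, 19, 15.2 and 9.1 TPM in Bowman (-1.76, SE 0.434, adjusted p = 0.109). Relative to its mean, its Bowman libraries were the most spread of the 4 abundant copies. At W5.5 it had 4.1, 2.6 and 4.4 TPM against 16.2 to 33.1 TPM in Bowman and was called (-2.34, adjusted p = 0.00513).

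The weaker copies moved the same way. MLOC_52969.1 had 3, 1.5 and 2.3 TPM in vrs1 at W3.5 and 2.4, 2.4 and 2.3 TPM at W5.5, with log2 fold changes of -1.75 (adjusted p = 6.66e-05) and -1.95 (adjusted p = 8.58e-06). MLOC_3247.1, the mapped copy, was listed at 1.1, 1.2 and 0 TPM and at 1.4, 1.1 and 1.2 TPM. Its log2 fold changes were -1.92 (adjusted p = 0.000143) and -1.48 (adjusted p = 0.00405), so the only copy with a map position fell with the rest. MLOC_53975.1 had 2.4, 2.1 and 0.7 TPM and then 1.8, 1.6 and 0.5 TPM, and MLOC_41222.1 had 1.1, 1.1 and 0.6 TPM and then 1.1, 0 and 0 TPM. MLOC_42368.1 had 0.6, 0.2 and 0.2 TPM and then 0.5, 0.4 and 0.3 TPM, and MLOC_50854.1 had 0.4, 0.2 and 0.5 TPM and then 0.4, 0 and 0.3 TPM. At such levels the pseudocount of 1 TPM compresses a fold change, and these last 2 copies had the least negative values at W3.5, -1.68 and -1.44. As a percentage of the Bowman mean, the 10 copies stood at 10.1% to 24.4% (median 16.9%) in vrs1 at W3.5 and between 5.13% and 23.6% (median 12.8%) at W5.5. The extremes were weak copies or MLOC_32926.2, and no copy kept the Bowman level.

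The low-confidence copies fell in vrs1 too. At W3.5, 14 of the 15 were among the 89 transcripts called lower (15.7%), and at W5.5 all 15 were among 81 (18.5%). Several of them were abundant: MLOC_42641.1 had 63.1, 80.4, 80.2 and 62.8 TPM in Bowman at W3.5 and 15.2, 8.4 and 8.2 TPM in vrs1. MLOC_32009.1 had 48, 50.1, 50.4 and 62.9 TPM against 11.7, 9.3 and 7 TPM, and MLOC_42987.1 had 24.1, 31.4, 28.5 and 29.2 TPM against 7.5, 4.5 and 5.3 TPM. All 5 were called lower in vrs1 at both stages, with log2 fold changes from -2.69 to -2.13 at W3.5 and from -2.98 to -2.54 at W5.5.

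**Figure D2:**
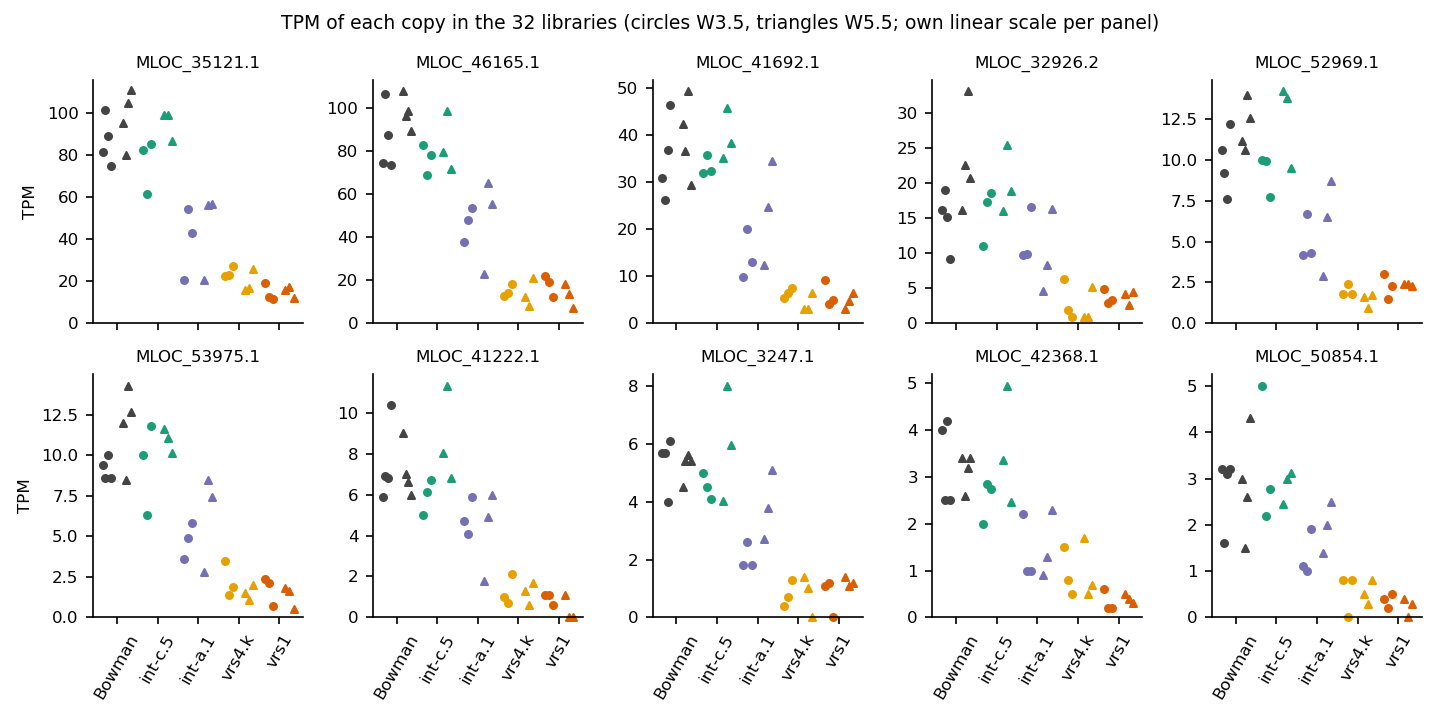
TPM (vertical axis, its own linear scale in each panel, from 0) of each of the 10 copies in all 32 libraries, by line (horizontal axis); each point is a library, circles W3.5 and triangles W5.5. The panels are ordered by mean TPM from MLOC_35121.1 to MLOC_50854.1, and in each the vrs1 points lie below all Bowman points of their stage.

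In int-a.1 the family stood between Bowman and vrs1. All 10 copies had a lower mean than in Bowman at both stages, at 38.4% to 80.7% of the Bowman mean at W3.5 (median 49.6%) and 42% to 74% at W5.5 (median 51.2%). Few passed the test: 1 of 10 was called lower at W3.5, where 0.583% of all transcripts were, and 2 of 10 at W5.5, where 0.597% were. At an unadjusted limma p below 0.05 there were 8 of 10 at each stage, beside 8.75% and 11.8% of all transcripts in either direction. The int-a.1 libraries lay wholly below Bowman for 7 copies at W3.5 and 4 at W5.5, against 3.26% and 7.3% of all transcripts.

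MLOC_35121.1 was the copy called at both stages. It had 20.2, 54.2 and 42.8 TPM in int-a.1 at W3.5 and 20.4, 56.2 and 56.4 TPM at W5.5, and fell by 1.23 (SE 0.292, adjusted p = 0.0489) and by 1.24 (adjusted p = 0.0397) on the log2 scale. MLOC_52969.1 had 4.2, 6.7 and 4.3 TPM at W3.5 and 2.9, 6.5 and 8.7 TPM at W5.5, where it fell by 0.99 (SE 0.229, adjusted p = 0.0359). MLOC_46165.1 had 37.8, 48.1 and 53.4 TPM and then 23, 65.1 and 55.5 TPM, all below Bowman, yet was not called (adjusted p = 0.316 and 0.101). MLOC_41692.1 missed the threshold at W3.5, with 9.7, 20 and 13 TPM (-1.27, adjusted p = 0.0508), and overlapped Bowman at W5.5 with 12.3, 24.6 and 34.4 TPM.

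A single library was low for the whole family in int-a.1. At W5.5 replicate 1 had the lowest value of its group for 10 of 10 copies, and its total of 72.8 TPM stood against 181.2 and 194.6 TPM. At W3.5 replicate 1 was lowest for 7 of 10; it is also 1 of 4 libraries whose score on the first principal component (24.25% of the variance) was beyond the other stage's median. Without those 4 libraries 1 copy was again called at W3.5, but it was MLOC_42368.1 and not MLOC_35121.1. The int-a.1 calls rest on narrow margins. Without int-a.1 W5.5 replicate 1, or without any 1 of the 4 Bowman libraries, 0 of 10 copies were called at W5.5; without replicate 2 there was 1. At W3.5 the count was 0 when Bowman replicate 1, 2 or 3, or replicate 3 of int-a.1, was left out, and 2 when int-a.1 replicate 2 was.

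In int-c.5 the family was at the Bowman level within the spread of the libraries. Of the 10 copies 0 were called at either stage by limma, where 0.0994% and 0.106% of all transcripts were called in either direction. At an unadjusted p below 0.05 there were also 0, beside 8.05% and 5.35% of all transcripts. Log2 fold changes ran from -0.27 to 0.17 at W3.5 and from -0.24 to 0.24 at W5.5, and the libraries of the 2 lines overlapped for all 10 copies (wholly lower in int-c.5 for 4.19% and 4.44% of all transcripts). MLOC_35121.1 had 82, 61.3 and 85.2 TPM at W3.5 and 98.6, 98.7 and 86.7 TPM at W5.5. MLOC_46165.1 had 83, 68.8 and 78.2 TPM and then 79.5, 98.7 and 71.9 TPM. The first value of each copy at W3.5 comes from a column that holds whole numbers only. A miss of the threshold does not show equal levels; the SEs of these fold changes ran from 0.229 to 0.434.

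**Figure D3:**
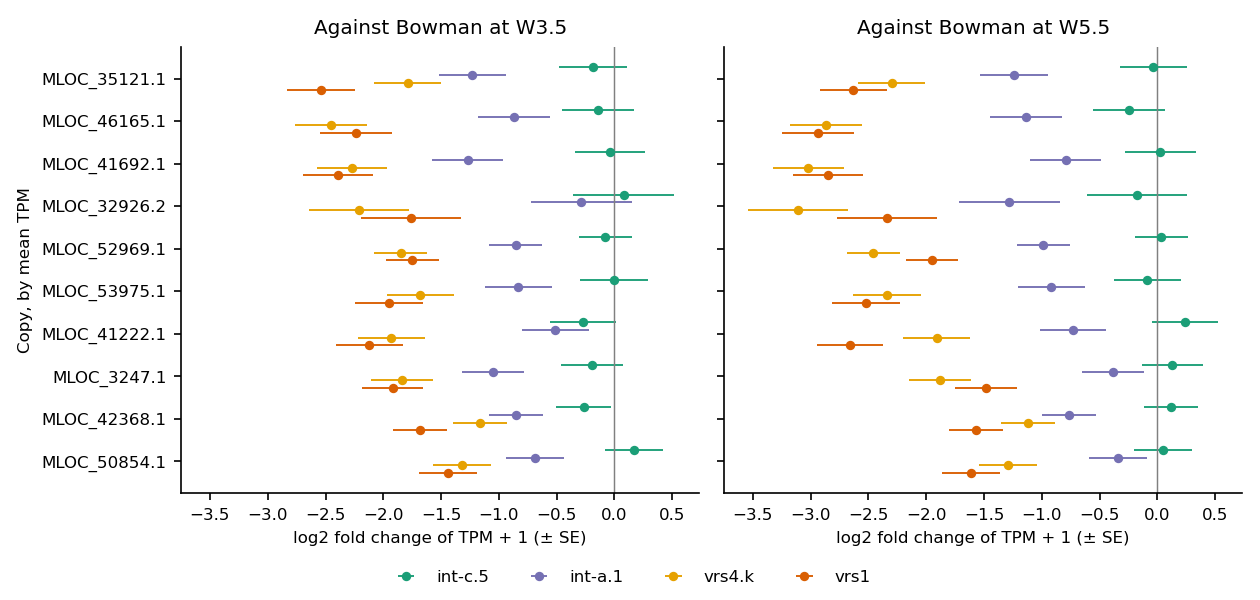
Log2 fold change of TPM + 1 against Bowman (horizontal axis, ± SE from the limma fit) for each copy (vertical axis, ordered by mean TPM), at W3.5 on the left and W5.5 on the right; colours mark the 4 lines. The int-c.5 points lie between -0.27 and 0.24, and those of int-a.1, vrs4.k and vrs1 lie below 0; the vrs4.k points are a description.

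The copies were also compared between lines without Bowman, averaged over both stages. Against vrs1, int-a.1 was called higher for 9 of 10 copies (0.331% of all transcripts), with a median log2 difference of 1.31, and MLOC_32926.2 was the exception (1.27, adjusted p = 0.0856). The line int-c.5 was called higher than vrs1 for all 10 (0.358% of all transcripts), with a median of 2.09. Against int-c.5, int-a.1 was called lower for 4 of 10 (0.57% of all transcripts): MLOC_35121.1 (-1.13, adjusted p = 0.00625), MLOC_41692.1 (-1.03, adjusted p = 0.0241), MLOC_52969.1 (-0.90, adjusted p = 0.00525) and MLOC_42368.1 (-0.73, adjusted p = 0.0461). The other 6 copies were also lower in the mean, by 0.60 or more on the log2 scale, without a call. Every int-a.1 library lay above every vrs1 library of its stage for 10 of 10 copies (3.66% of all transcripts at W3.5 and 4.81% at W5.5). With the libraries of a pair fitted alone, 3 of 10 copies were called between int-a.1 and vrs1 and 0 between int-a.1 and int-c.5. Without the 4 libraries apart from their stage, 1 copy was called between int-a.1 and int-c.5.

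In vrs4.k, the line the family was chosen for, the 10 copies had log2 fold changes from -2.45 to -1.16 against Bowman at W3.5 (median -1.85) and from -3.11 to -1.12 at W5.5 (median -2.32). All 10 were below Bowman in every library; 2.71% and 6.22% of all transcripts showed that separation and 0.481% and 0.55% were called lower; nothing is read from these, since the choice used them. MLOC_35121.1 had 22.5, 23 and 26.9 TPM and then 15.6, 16.8 and 25.7 TPM, and MLOC_46165.1 had 12.4, 13.8 and 18.3 TPM and then 12.1, 7.7 and 20.9 TPM. Between vrs4.k and vrs1 the libraries overlapped for all but 1 copy at each stage. At W3.5 the exception was MLOC_35121.1, higher in vrs4.k, as were 4.49% of all transcripts, and at W5.5 it was MLOC_52969.1, higher in vrs1, as were 6.01%.

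The stage made no difference that could be called. Within Bowman, int-a.1, vrs1 and int-c.5 limma called 0 of 10 copies between W3.5 and W5.5. Of all transcripts it called 0% higher or lower in Bowman, vrs4.k, vrs1 and int-c.5, and 0.00994% higher in int-a.1. At an unadjusted p below 0.05 there was 1 copy in int-a.1, where 12.9% of all transcripts passed. In Bowman, vrs1 and int-c.5 there were 0, beside 22.2%, 7.16% and 15.8% of all transcripts. The median log2 change of the 10 copies with stage ran from -0.25 in vrs4.k, where it is a description, to 0.31 in int-c.5. Whether a line difference itself changed with stage was tested in int-a.1, vrs1 and int-c.5. By limma 0 copies and 0% of all transcripts were called. At an unadjusted p below 0.05 there were 0 copies, beside 5.85%, 2.5% and 2.91% of all transcripts in those lines.

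The same copies led the family in all 5 lines. MLOC_35121.1 and MLOC_46165.1 together held 65.8% ± 4.799 of the family total (SD, n = 32 libraries; 55% to 74.92%). With MLOC_41692.1 and MLOC_32926.2 added, the share was 85.4% ± 2.04 (SD, n = 32). These 4 copies held ranks 1 to 4 in all 5 lines, and the leading pair exchanged places between lines. MLOC_46165.1 alone held 32.8% ± 2.95 in Bowman (SD, n = 8) and, with n = 6 each, 33.2% ± 7.63 in vrs1, 33.98% ± 4.13 in int-a.1, 30.9% ± 1.997 in int-c.5 and 27.6% ± 3.97 in vrs4.k (SD). Shares in vrs1 and vrs4.k rest on few TPM in the weak copies and scatter more: MLOC_42368.1 ran from 0.809% to 4.30% in vrs4.k and from 0.870% to 1.66% in Bowman.

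MLOC_35121.1 held a larger share in vrs4.k. Its share was 40.5%, 45.2% and 43.5% in the vrs4.k libraries at W3.5 and 39.5%, 51.4% and 39.5% at W5.5, against 29.5% to 37.5% over the 8 Bowman libraries. In vrs1, whose total was as low, its share was 29.98%, 27.4% and 32.1% at W3.5 and 32.4%, 39.6% and 35% at W5.5. The vrs4.k values lay above all Bowman values and above all vrs1 values of W3.5, and overlapped vrs1 at W5.5 by 1 library. In int-c.5 (32.8% ± 2.74) and int-a.1 (29.01% ± 4.65; SD, n = 6 each) the share overlapped that of Bowman. The vrs4.k levels were used in choosing the family, so the difference in share is given without a test.

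**Figure D4:**
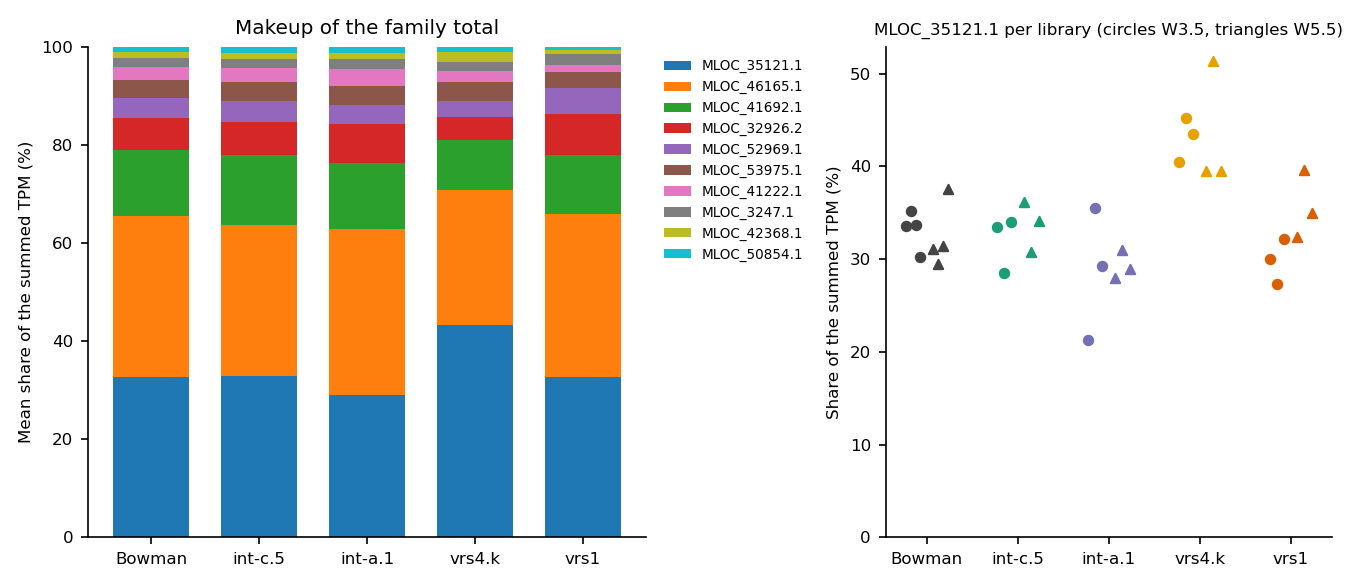
On the left, mean share of each copy in the summed TPM of the 10 copies (vertical axis, percent) for each line (horizontal axis), stacked to 100%; on the right, the share of MLOC_35121.1 (percent) in each library, circles W3.5 and triangles W5.5. The stacks keep nearly the same order in all lines, and the vrs4.k points on the right, 39.5% to 51.4%, lie above the Bowman points.

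The authors' deposited table gives its own fold changes against Bowman. For the overall effect of a line, the authors' deposited table put the 10 copies between -2.69 and -1.95 in vrs1, all 10 with a false discovery rate below 0.05, as for 0.454% of all transcripts. For int-a.1 the authors' deposited table has values from -1.23 to -0.54 with 6 of 10 below that rate (1.65% of all transcripts). For int-c.5 the authors' deposited table has values from -0.15 to 0.19 with 0 of 10 (0.278% of all transcripts). By stage, the authors' deposited table has 6 and 7 of 10 copies below that rate in vrs1 (0.259% and 0.275% of all transcripts) and 1 and 0 in int-a.1 (0.391% and 0.53%).

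Few transcripts of the other steps of the phosphorelay and of cytokinin signalling were called. These lists were built from key words in the match descriptions and are short. Of all transcripts 0.268% to 0.597% were called lower in int-a.1, vrs1 or vrs4.k against Bowman. In int-c.5 0.0994% and 0.106% were called in either direction, and unadjusted 4.3% to 11.8% passed over the comparisons with Bowman. At such shares 0 calls in a short list is no result about the pathway. Cytokinin receptors (4 transcripts with CHASE-type or histidine kinase 3 matches) had 0 members called by limma in any of the 8 comparisons of a line with Bowman. The summed receptor TPM was 65.8 ± 10.0 in Bowman (SD, n = 4) and 61.3 ± 11.99 in vrs1 (SD, n = 3) at W3.5, a difference within the spread between libraries. At W5.5 the sum was lower in vrs1 (63.1 to 76.1 TPM) and vrs4.k (51.8 to 75.5) than in Bowman (77.2 to 93.1). Those of int-a.1 (69.7 to 84.5) and int-c.5 (59.45 to 85.98) overlapped Bowman there. The sums were not tested. At an unadjusted p below 0.05 there were 0 to 2 of the 4, by comparison. Of 6 phosphotransfer entries, 3 of which match phosphotransferases of other kinds, and of 18 response regulators, which include pseudo-response regulators of the clock, limma called 0. Unadjusted, 0 to 2 and 1 to 2 members passed. At the W3.5 comparison of vrs1 their medians were -0.05 and -0.12 on the log2 scale. The 3 ethylene signalling transcripts (0 to 2 unadjusted) and 4 cytokinin breakdown transcripts (0 to 1) also had 0 calls. Of 13 cytokinin synthesis entries, 1 was called: MLOC_9852.1, with the lysine decarboxylase description that LONELY GUY-type cytokinin-activating enzymes carry. It was lower in vrs1 at W3.5, at 15.7 ± 1.44 TPM (SD, n = 3) against 27.1 ± 2.67 (SD, n = 4; -0.75, SE 0.127, adjusted p = 0.00203), and in vrs4.k at W3.5, at 17.4 ± 3.04 TPM (-0.62, adjusted p = 0.0124). Another description that names histidine kinase was carried by 20 transcripts. Of these, 12 match a histidine kinase-, DNA gyrase B- and HSP90-like ATPase family, and whether they are kinases was not tested. Another 4 are ethylene sensors, and the 3 CHASE-type and 1 histidine kinase 3 entries are the receptors counted above. Of the 20, 0 were called in the 8 comparisons with Bowman and 0 to 3 passed unadjusted.

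Tissue markers were called in 1 instance. The shares of all transcripts given above for the comparisons with Bowman apply here too, but the called shares of int-a.1, vrs1 and vrs4.k are for lower calls only. Limma called 0 in a line against Bowman among 16 transcripts of meristem and young organs, 11 of epidermis and 17 of vascular tissue. Unadjusted, at most 3, 1 and 3 passed. Of 57 leaf transcripts 1 was called (at most 14 unadjusted), AK360741, higher in vrs4.k at W5.5. In that comparison 44 of all 30174 transcripts were called higher. The summed meristem TPM was 250.5 to 343.4 in Bowman and 256.3 to 275.8 in vrs1 at W3.5, and 266 to 353.1 and 291.3 to 395 at W5.5. The summed leaf TPM was 1327 to 1829 in Bowman and 1328 to 1993 in vrs1 at W3.5. The summed epidermis and vascular TPM of vrs1 also overlapped Bowman at both stages. At W5.5 the epidermis sum of int-a.1, 185.1 to 229 TPM, lay below the 249.1 to 314.8 TPM of Bowman. The vascular sum of int-c.5 at W5.5, 232.9 to 260.4 TPM, lay above the 191.3 to 225.8 TPM of Bowman. Every other marker sum of a line overlapped Bowman at its stage. These sums were not tested. KNOTTED-type and YABBY transcripts, which define the meristem and its young organs, were detected in every group.

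The transcripts whose pattern was most like the family total were found by Pearson's r of log2(TPM + 1) with the log2 total over all 32 libraries, which share lines and stages. The nearest was MLOC_25487.2 (r = 0.986), a low-confidence transcript with a serine carboxypeptidase-like 49 match, a class of peptidases and acyltransferases, on chromosome 2 at position 57.05. It had 21.7, 22.3, 24.5 and 24.5 TPM in Bowman at W3.5, 7.4, 9.1 and 10.1 TPM in int-a.1 and 3.9, 2.5 and 1.7 TPM in vrs1. The next were MLOC_54513.1 (0.977), MLOC_13231.1 (0.961), MLOC_33067.1 (0.959) and MLOC_29736.2 (0.959), none with an informative match. The 15 copies themselves had r from 0.881 to 0.988, but 10 of them are parts of the total, which raises their r. Over the 26 libraries that are not vrs4.k, MLOC_25487.2 (0.986), MLOC_54513.1 (0.98) and MLOC_29736.2 (0.963) led again. They were followed by MLOC_81356.1 (0.96) and MLOC_2297.1 (0.959), both with a PIF1 helicase match, a family of DNA helicases. In MLOC_2297.1 the mean was 61.0 ± 10.6 TPM in Bowman (SD, n = 8), 35.4 ± 5.70 in int-a.1 and 19.8 ± 2.95 in vrs1 (SD, n = 6 each).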

How the data were processed

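RNA sequencing of 32 libraries gave 1 deposited table with 30174 transcripts. Per the file headers its columns are raw counts, but the deposited values are not whole numbers and sum to between 980945 and 987729 per library, so they were used as TPM. One deposited TPM column (int-c.5 W3.5 replicate 1) is rounded to whole numbers and was recorded as a score; its 5 companions from int-c.5 are printed to more decimals than all the others. The deposited log2 fold changes and false discovery rates (adjusted p-values) are the authors' own. BWA, GATK, limma and Salmon appear in the submitters' processing notes, without versions. No build is named there. Sequencing depth is unknown, so no counting interval is given, and values of 0 are called listed at 0.

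Columns were assigned to groups by line and stage, with 0 columns unassigned. Replicate numbers were used only to name libraries, and the main fit pairs none. All libraries were fitted in limma 3.58.1 (R 4.3.3) on log2(TPM + 1), one mean for each of the 10 groups and no further term, after testing on simulated data. A filter (1 TPM or more in 3 or more libraries) removed 0 transcripts. A transcript was called at a Benjamini-Hochberg adjusted p below 0.05 over all transcripts, in 17 fitted comparisons. Besides these, vrs4.k against Bowman was fitted at both stages, and its calls are given only for transcripts other than the copies. For the copies, the vrs4.k values against Bowman and between stages are a description. Fold changes on this scale understate changes of weak transcripts. Sums, shares and percentages were computed in Python 3.11.15 and have no test.

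The members, the key-word lists and the comparisons were chosen with earlier results of these data known. Named transcripts are every member, the 3 strongest low-confidence copies, the 5 most alike transcripts over 32 and over 26 libraries, and called list members; MLOC_49082.1 and MLOC_77822.1, the other mapped low-confidence copies, were named after their values were seen. None of the table's identifiers matched the reference gene table, so no sequence is printed. Alternatives were another pseudocount (0.1), quantile and median-ratio scaling, a mean TPM of at least 2, only the compared groups, library weights, a mean-variance trend, the heading's replicate number as a block, omission of the 4 libraries apart from their stage, and omission of each library.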

Additional observations from a re-analysis of the deposited data

Results flagged for a closer look

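In Bowman at W3.5, MLOC_50854.1 stood at 1.6 TPM in replicate 2 and at 3.2, 3.1 and 3.2 TPM in the other 3 libraries, a gap that set the lowest library apart by Dixon's criterion for 4 samples. This was 1 of 22 groups of 4 so examined, and chance marks about 1 in 20. MLOC_50854.1 is the weakest of the 10 copies by mean TPM, and all vrs1 libraries at W3.5 lay below 1.6 TPM as well.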

How the results depend on the processing

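The family totals kept their direction and stayed within the replicate SD under every alternative tried, and the counts of called copies in vrs1 at W5.5, in int-c.5, in the interactions, within the stages of Bowman, vrs1 and int-c.5, and for int-c.5 against vrs1 stayed within 1.5 times. The int-a.1 counts did not hold. Against Bowman at W3.5 the count was 0 with a pseudocount of 0.1, with quantile normalization, with median-ratio scaling and with only the compared groups, 2 with a mean-variance trend and 5 with library weights, against 1; leaving out single libraries gave 0 to 2. At W5.5 it was 0 with the pseudocount of 0.1, with either scaling and with only the compared groups, and 1 with library weights, against 2; leaving out single libraries gave 0 to 2. With library weights 3 copies were called between the stages of int-a.1, against 0. With only the compared groups, which leaves fewer libraries to estimate the spread, 3 copies were called in vrs1 at W3.5 against 9, 3 between int-a.1 and vrs1 against 9, and 0 between int-a.1 and int-c.5 against 4. Without the 4 libraries apart from their stage the last count was 1, and leaving out single libraries gave 2 to 4. The cause was not tested where no reason is given. The filter at a mean TPM of at least 2 left 8 of the 10 copies. Quantile normalization moved the median of all transcripts by over 0.1 (log2) in 1 comparison, the stages of int-c.5, from 0.10 to -0.01. The sample labels carry no replicate numbers, but the column headings do. A fit with the heading's number as a replicate block, chosen after seeing the data, called 0 copies in int-a.1 at W3.5 and 0 at W5.5, and the other counts stayed within 1.5 times. In 0 of 13 pairs of groups were the deviations of all same-numbered libraries correlated above 0.1 (r from -0.464 to 0.418). Some were: 3 of 4 between the stages of Bowman, and 2 of 3 for int-c.5 and for vrs4.k against Bowman at W5.5. Whether same-numbered libraries were handled together cannot be told from this. The depth of the libraries is unknown, so what depth limits cannot be stated.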

Other observations

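The PIF1 helicase description among the most alike transcripts was followed up after its values were seen. MLOC_81356.1 and MLOC_2297.1, which prompted this, are included in the counts below. They were picked for following the family total in these libraries, so the counts are not independent of the pick and are a description. Of 76 transcripts with that description, 13 and 16 were called lower by limma in vrs1 at W3.5 and W5.5 (0.295% and 0.268% of all transcripts). In int-a.1 1 and 7 were (0.583% and 0.597%), and in vrs4.k 13 and 18 (0.481% and 0.55%). In int-c.5 0 and 0 were (0.0994% and 0.106% of all transcripts in either direction), with 0 to 1 at an unadjusted p below 0.05. Over the 8 comparisons 0 to 43 of the 76 had an unadjusted p below 0.05, beside 4.3% to 11.8% of all transcripts. At W5.5 all 76 had a log2 fold change below 0 in int-a.1 and in vrs4.k. Of all 30174 transcripts, 16872 and 18428 did. Helicases of this family also occur in plant Helitron transposons, which is background knowledge and was not tested here. Their medians in vrs1 were -0.02 and -0.33 on the log2 scale, against -1.94 and -2.43 for the 10 histidine kinase 5-like copies.

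Map neighbours within 1 PopSeq unit were also counted after the values were seen. MLOC_3247.1, the mapped copy on chromosome 3, had 51 neighbours, of which limma called 0 in any comparison of a line with Bowman (1 to 4 unadjusted). The low-confidence copy MLOC_42987.1 (chromosome 2, 57.12) had 424 neighbours, of which 4 were called lower in vrs1 at W3.5 and 3 at W5.5, MLOC_25487.2 among them each time; 0.295% and 0.268% of all transcripts were called lower there. Unadjusted, 14 to 50 of the 424 passed over the 8 comparisons, in which 4.3% to 11.8% of all transcripts did. The low-confidence copy MLOC_49082.1 (chromosome 3, 59.53) had 49 neighbours (1 to 8 unadjusted over the 8 comparisons). Of these 1, MLOC_13231.1, was called lower in int-a.1 and vrs1 at both stages, where 0.268% to 0.597% of all transcripts were. MLOC_13231.1 and MLOC_25487.2 were already known to follow the family total in these libraries, so their calls are no separate result. MLOC_77822.1 (chromosome 2, 112.32) had 46 neighbours with 0 called (0 to 5 unadjusted). So 2 of the transcripts most like the family total lie within 1 PopSeq unit of a low-confidence copy. They are 1 of 424 and 1 of 49 neighbours, and the share of all transcripts so near a copy is not given. The Arabidopsis match of MLOC_49082.1 is AT5G10680.1 and not the AT5G10720.1 of the 10 copies.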
